A study of Drosophila melanogaster with 2 samples.

Results

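The microRNA genes of Drosophila melanogaster were examined for binding by Lola in embryos. Members were the genes whose symbol begins with mir- in the Ensembl annotation, which writes let-7 as mir-let7, bantam as mir-ban and mir-263a as mir-bft, restricted to 6 chromosome arms: X, 4 and both arms of chromosomes 2 and 3. The rule found 260 hairpin genes, among 17683 annotated genes other than transposable elements on those arms. Each was given a window of the hairpin plus 2000 bp on each side, in which peak summits were counted. Chromatin immunoprecipitation followed by sequencing (ChIP-seq) had been carried out with an anti-GFP antibody on whole embryos of both sexes, aged 0 to 12 h, although the antibody field of the labels lists lola. The embryos came from a transgenic line that stably carries Lola-RJ with GFP at its C terminus, and the labels give neither the promoter of the transgene nor the state of the native lola gene. The samples formed 1 group of 2 biological replicates, numbered 1 and 3, with no second genotype and no mock precipitation used here. All shares are therefore descriptions set beside the share of genome positions or genes measured the same way, and no test between samples was possible. In whole embryos, strong binding in a few cells and weak binding in many cannot be told apart.

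A microRNA is cut from a hairpin within a longer primary transcript, first in the nucleus by Drosha with its partner Pasha and then in the cytoplasm by Dicer-1 with Loquacious. One strand of the product is loaded into AGO1, and its seed, the bases near the 5' end, pairs with target mRNAs. Several hairpins can lie in a single primary transcript, and a hairpin in an intron is made along with the mRNA of its host gene, so the site that controls a microRNA can lie far from its hairpin. Lola (longitudinals lacking) is a BTB zinc-finger transcription factor made in many splice forms with different zinc fingers, and it guides growing axons.

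Mature products are shown for a selection of the loci with a summit, and for mir-996, which shares a transcript with mir-279. Other loci with a summit are left out, among them mir-9377, mir-4968 and mir-9378, whose strongest summits were above that of mir-92a. Some conserved microRNAs with a summit are left out too. The products shown identify these microRNAs and the families they belong to. They were read from the RefSeq copy of the dm6 genome at the mature positions of the Ensembl annotation, 5' to 3', with the seed (bases 2 to 8) in capitals. The hairpins lie at 3R:29215585-29215684 (mir-279), 3R:29217184-29217280 (mir-996), 3L:3251022-3251118 (mir-282), 3R:15417408-15417845 (mir-13b-1, mir-13a and mir-2c, minus strand), 3R:25646506-25646600 (mir-92a), 3L:642208-642288 (mir-ban), 2L:857542-857632 (mir-375), 2L:7425795-7426044 (mir-275 and mir-305) and 3L:15843406-15843495 (mir-263b, minus strand).
mir-279-3p: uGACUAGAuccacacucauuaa
mir-996-3p: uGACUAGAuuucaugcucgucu
mir-282-5p: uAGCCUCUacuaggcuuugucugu
mir-2c-3p: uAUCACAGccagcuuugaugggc
mir-13a-3p: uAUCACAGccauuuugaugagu
mir-13b-1-3p: uAUCACAGccauuuugacgagu
mir-92a-3p: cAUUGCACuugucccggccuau
mir-ban-3p: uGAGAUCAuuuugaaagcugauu
mir-375-3p: uUUGUUCGuuuggcuuaaguua
mir-275-3p: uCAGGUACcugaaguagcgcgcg
mir-305-5p: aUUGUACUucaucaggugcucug
mir-263b-5p: cUUGGCACugggagaauucac
The mir-279 and mir-996 products share the seed GACUAGA, and the mir-2c, mir-13a and mir-13b-1 products share AUCACAG, which pairs with the K box of 3' UTRs.

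The 101-bp windows centred on the strongest summit at 4 of these loci are shown as the sequence under the binding, on the forward strand of dm6. They lie at 3R:29214390-29214490 for mir-279, 3L:3250160-3250260 for mir-282, 3R:15418954-15419054 for the mir-13b-1 to mir-2c cluster and 3L:640726-640826 for bantam.
mir-279: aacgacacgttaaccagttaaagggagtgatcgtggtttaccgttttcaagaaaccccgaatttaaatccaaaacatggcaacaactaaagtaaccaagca
mir-282: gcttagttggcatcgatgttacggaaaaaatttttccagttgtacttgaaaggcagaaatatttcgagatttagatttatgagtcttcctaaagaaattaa
mir-13b-1 to mir-2c: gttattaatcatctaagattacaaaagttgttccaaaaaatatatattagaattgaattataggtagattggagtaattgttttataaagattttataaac
mir-ban: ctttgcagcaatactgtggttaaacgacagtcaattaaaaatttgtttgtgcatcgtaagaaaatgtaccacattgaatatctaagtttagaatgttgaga
None of these windows holds GAGAG (the GAGA factor motif), CAGGTA (a core of the Zelda motif) or TATCGATA (the DRE), searched on both strands, so nothing is in capitals. Over the 39 summits in hairpin windows, GAGAG was present in 4 (10.3%), against 7.30% of all 6154 summit windows. CAGGTA was in 2 (5.13%, against 2.08%) and TATCGATA in 0 (against 1.2%). The median A/T content was 70.3% at summits near hairpins, ranging between 46.5% and 85.1%, and 71.3% over all summits. These counts are too small to set the summits near hairpins apart by sequence.

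Of the 260 hairpins, 38 had a summit of the IDR-thresholded list within their window (the irreproducible discovery rate weighs each peak by the match of its rank across replicates). This was 14.6% (Wilson 95% interval 10.8% to 19.4%, counting error only), and 14.7% of all genome positions had a summit in a window of the same size. Hairpins as a class thus stood at the level of the genome. Counted by locus, with neighbouring hairpins on the same strand no more than 10000 bp apart counted once, 28 of 203 loci had a summit (13.8%, interval 9.72% to 19.2%). The windows held 39 distinct summits, 0.634% of the 6154 in the list. A single summit lay near 29 hairpins, 2 lay near 7 hairpins and 3 lay near 2 hairpins. Other short non-coding genes were more often near a summit: 33.8% of the 591 tRNA, snoRNA and snRNA genes had one in the gene plus the same flanks. Within 2000 bp of their first coding start site, 29.6% of coding genes had one.

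With 2000 bp on each side, intergenic hairpins stood above their background and hairpins inside coding genes below it. Of the 94 intergenic hairpins, those not wholly inside a coding gene, 22 had a summit (23.4%, interval 16.0% to 32.9%), against 12.7% of positions outside coding genes. Of the 166 hairpins inside a coding gene, 16 had one (9.64%, interval 6.02% to 15.1%), against 15.7% of positions inside coding genes. By locus the shares were 20.0% of 60 intergenic loci (interval 11.8% to 31.8%) and 11.0% of 145 loci inside coding genes (interval 6.91% to 17.2%), and 2 loci have hairpins of both kinds. The 2 locus intervals overlap, and the intergenic one reaches down to 11.8%, below the 12.7% of positions. Hairpins of a cluster share their summits, so the intervals over hairpins are too narrow. With 1000 bp on each side in place of 2000 bp, 8.51% of intergenic hairpins had a summit, against 7.99% of positions, and 6.02% of those inside coding genes did, against 8.51% of positions. With 5000 bp the shares were 35.1% of intergenic hairpins, against 22.4% of positions, and 33.1% of hairpins inside coding genes, against 31.3%, so those inside genes were then no longer below their background. Among hairpins inside genes, 15 of 136 with a host on their own strand had a summit (11.0%), as did 1 of 30 with a host on the opposite strand (3.33%). An intron held 122 of them, of which 15 had a summit. The 23 hairpins in coding exons gave 1, and the 21 in UTR exons gave 0, which allows a share of up to 15.5% by the Wilson interval.

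**Figure D1:**
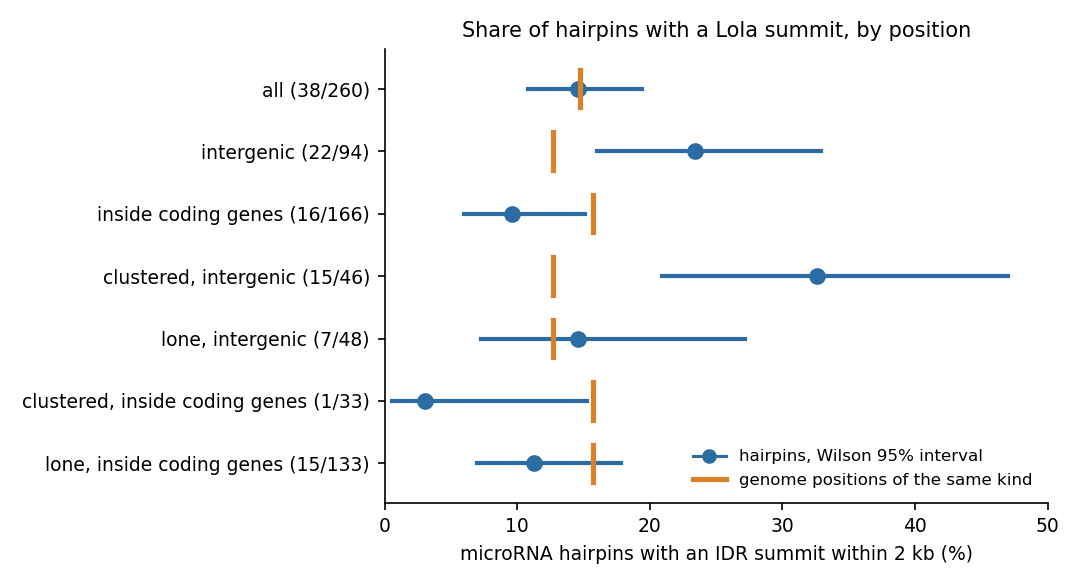
Share of microRNA hairpins (%) with an IDR summit in the hairpin plus 2000 bp on each side, by class. Points are hairpins with Wilson 95% intervals and vertical bars are genome positions of the same kind; clustered intergenic hairpins stand at 32.6% against 12.7%, and hairpins inside coding genes at 9.64% against 15.7%.

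Most intergenic hairpins with a summit were in clusters. Of 46 clustered intergenic hairpins 15 had a summit (32.6%, interval 20.9% to 47.0%), and of 48 lone intergenic hairpins 7 had one (14.6%, interval 7.25% to 27.2%), against the 12.7% of positions. The clustered hairpins stood in 12 clusters, of which 5 had a summit (41.7%, interval 19.3% to 68.0%). Over all hairpins the shares were 20.3% of 79 clustered hairpins and 12.2% of 181 lone ones, or 6 of 22 clusters and 22 of 181 lone loci. This order turned in other settings: with 1000 bp on each side the shares were 3.80% of clustered and 8.29% of lone hairpins, and with all pooled peaks 43.0% of clustered and 49.7% of lone ones. With 5000 bp they were nearly equal, at 34.2% of clustered and 33.7% of lone hairpins. The 5 intergenic clusters were mir-275 with mir-305, mir-310 to mir-992, mir-279 with mir-996, mir-13b-1 to mir-2c and mir-972 to mir-979, although the last of these also has 2 hairpins inside Grip84. The 6th cluster was mir-92a with mir-92b, inside jigr1. Of 33 clustered hairpins inside coding genes, mir-92a alone had a summit, against 15 of 133 lone hairpins inside coding genes (11.3%).

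Nearness to coding start sites differed between hairpins and the genome and is given beside these shares. A coding start site lay in the window of 42.3% of hairpins and of 33.5% of genome positions. With a start site in the window, 22 of 110 hairpins had a summit (20.0%), against 25.3% of such positions. Without one, 16 of 150 hairpins had a summit (10.7%), against 9.28%. Intergenic hairpins near a start site had one in 10 of 37 cases (27.0%, against 21.5% of like positions). Those away from any start site had one in 12 of 57 cases (21.1%, against 9.83%), or 7 of 40 loci (17.5%, interval 8.75% to 31.9%). Inside coding genes the shares were 12 of 73 near a start site (16.4%, against 26.5%) and 4 of 93 away from one (4.30%, against 8.95%). The shares of intergenic hairpins were thus above their background in both settings and those of hairpins inside genes below it, but counted by locus all 4 intervals reached the background.

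The pooled list, which holds 30000 peaks and of which the IDR list is the 6154 strongest, reached more hairpins. A pooled summit lay in the window of 124 hairpins (47.7%, interval 41.7% to 53.8%), against 37.4% of genome positions. For intergenic hairpins it was 47 of 94 (50%, against 30.9% of positions), and for those inside coding genes 77 of 166 (46.4%, against 40.7%). Hairpins inside genes were thus below their background for strong peaks and slightly above it when weak peaks were added. The interval of the latter share, 39.0% to 54.0%, holds the 40.7% of positions. Regions with no peaks at all account for a part of the genome that few hairpins occupy: 18.3% of genome positions lay more than 50000 bp from any pooled summit, and 12 of the 260 hairpins did. The part of this in the shares above was not tested.

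The nearest IDR summit lay at a median of 7659 bp from a hairpin (quartiles 3662 and 23756 bp), against 14242 bp from genome positions taken every 10 bp. The median was 7097 bp for intergenic hairpins and 8062 bp for those inside coding genes. On the hairpin's own strand the nearest summit was upstream for 152 hairpins (58.5%), downstream for 107 and inside the hairpin for 1. That hairpin was mir-4974, in an intron of CG8671, whose summit was one of the weakest in the list, with a signal of 140.8 at rank 6113. Signal is the authors' value for a peak, on a scale that no source used here gives, and rank 1 is the strongest. Of the 39 summits in hairpin windows, 22 were upstream of the hairpin nearest to them, 16 downstream and 1 inside, and 9 were within 500 bp of it. The farthest inside the limit was 1988 bp upstream of mir-992, and the nearest outside it was 2098 bp upstream of mir-991 in the same cluster.

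**Figure D2:**
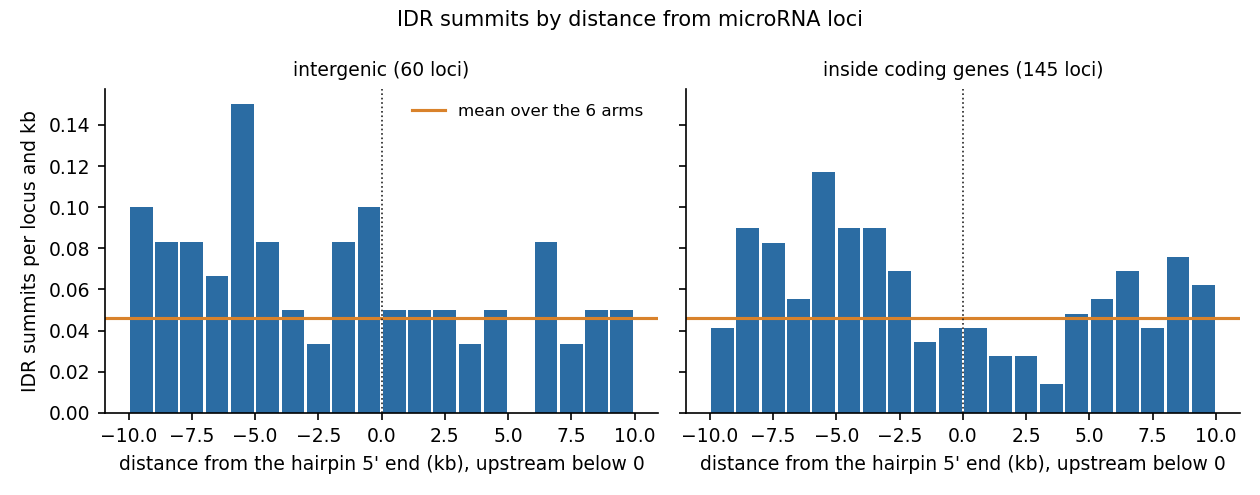
IDR summits per locus and kb (y axis) by distance from the hairpin's 5' end in kb (x axis, upstream below 0), for 60 intergenic loci and 145 loci inside coding genes; a cluster is placed by its first hairpin and the line marks the mean over the 6 arms, 0.0460 per kb. In the kb just upstream intergenic loci had 0.100 summits and loci inside genes 0.0414. The highest intergenic bin was not there but at 5 to 6 kb upstream, with 0.150, and in loci inside genes the bins between 1 and 4 kb downstream were all below the line.

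The 39 summits near hairpins were ordinary members of the list in strength and place. Their median signal was 279.4, against 268.4 over the list, and 21 were above the list's median. They ranged between 140.8 and 2292, and the list between 139.9 and 5349. A promoter (within 500 bp of a coding start site) held 15 of them (38.5%, against 40.4% of the list), an intron 12, intergenic sequence 12 and an exon 0. Their median distance to a coding start site was 1046 bp, against 1143 bp over the list. In replicate 1, 33 were among its 6154 strongest peaks (84.6%, against 83.7% of the whole list), and in replicate 3, 34 were (87.2%, against 85.2%). Both replicates placed 29 of them there (74.4%, against 71.3%), and 1 was in neither, the weakest of the 3 at mir-9377.

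The strongest summit at any hairpin belonged to mir-279, which represses the formation of carbon dioxide-sensing neurons on the fly head and acts together with mir-996. It had a pooled signal of 2292 at rank 55. Replicate 1 gave it 1193 at rank 44 and replicate 3 gave it 1115 at rank 69, so both placed it near the top. The summit lay 1145 bp upstream of the hairpin, at 3R:29214440, and 122 bp upstream of the annotated start of lncRNA:CR31044, whose span holds both hairpins. No coding start site was closer than 5732 bp to it. The mir-996 hairpin lay 2744 bp downstream of the same summit and had no IDR summit in its own window, where the strongest pooled summit had a signal of 133.5 at rank 6455, just past the end of the IDR list.

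A like arrangement was found at mir-282, where the summit had a pooled signal of 1519 at rank 185, with 764.4 at rank 172 in replicate 1 and 755.6 at rank 198 in replicate 3. It lay 812 bp upstream of the hairpin and 384 bp upstream of one start of lncRNA:CR43626, the transcript that holds it. Further starts of that transcript lay upstream of the summit, 1432 and 1682 bp before the hairpin. The cluster of mir-13b-1, mir-13a and mir-2c had a single IDR summit, 1159 bp upstream of mir-2c, with a signal of 1368 at rank 236. Its signal was 716.1 at rank 196 in replicate 1 and 661.3 at rank 267 in replicate 3. These microRNAs belong to the family that represses the pro-apoptotic genes of the fly. Here the summit was not at the annotated start of the transcript, since lncRNA:CR45911 starts 2529 and 2865 bp upstream of the first hairpin, and the nearest coding start site, of CG6118, was 7890 bp away.

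Bantam, which promotes growth and blocks cell death and is a target of the Hippo pathway, had 2 IDR summits in its window. One lay 1432 bp upstream with a pooled signal of 932.1 at rank 511, and the replicates ranked it 560 (replicate 1) and 486 (replicate 3). The other lay 368 bp downstream with a signal of 493.3 at rank 1431, and the replicates ranked it 1605 (replicate 1) and 1480 (replicate 3). Both summits were inside lncRNA:CR43334, the bantam transcript unit, which has a start 2494 bp upstream of the hairpin. The mir-375 gene, whose counterpart in mouse acts in pancreatic islets, had a summit of 471.7 at 686 bp upstream (224.0 in replicate 1 and 248.3 in replicate 3) and a weaker one of 150.5 at 707 bp downstream. Its transcript, lncRNA:CR45345, starts 139 bp upstream of the hairpin. At bantam and mir-375 the replicates thus gave summits of like rank, with no change in which summit was stronger.

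**Figure D3:**
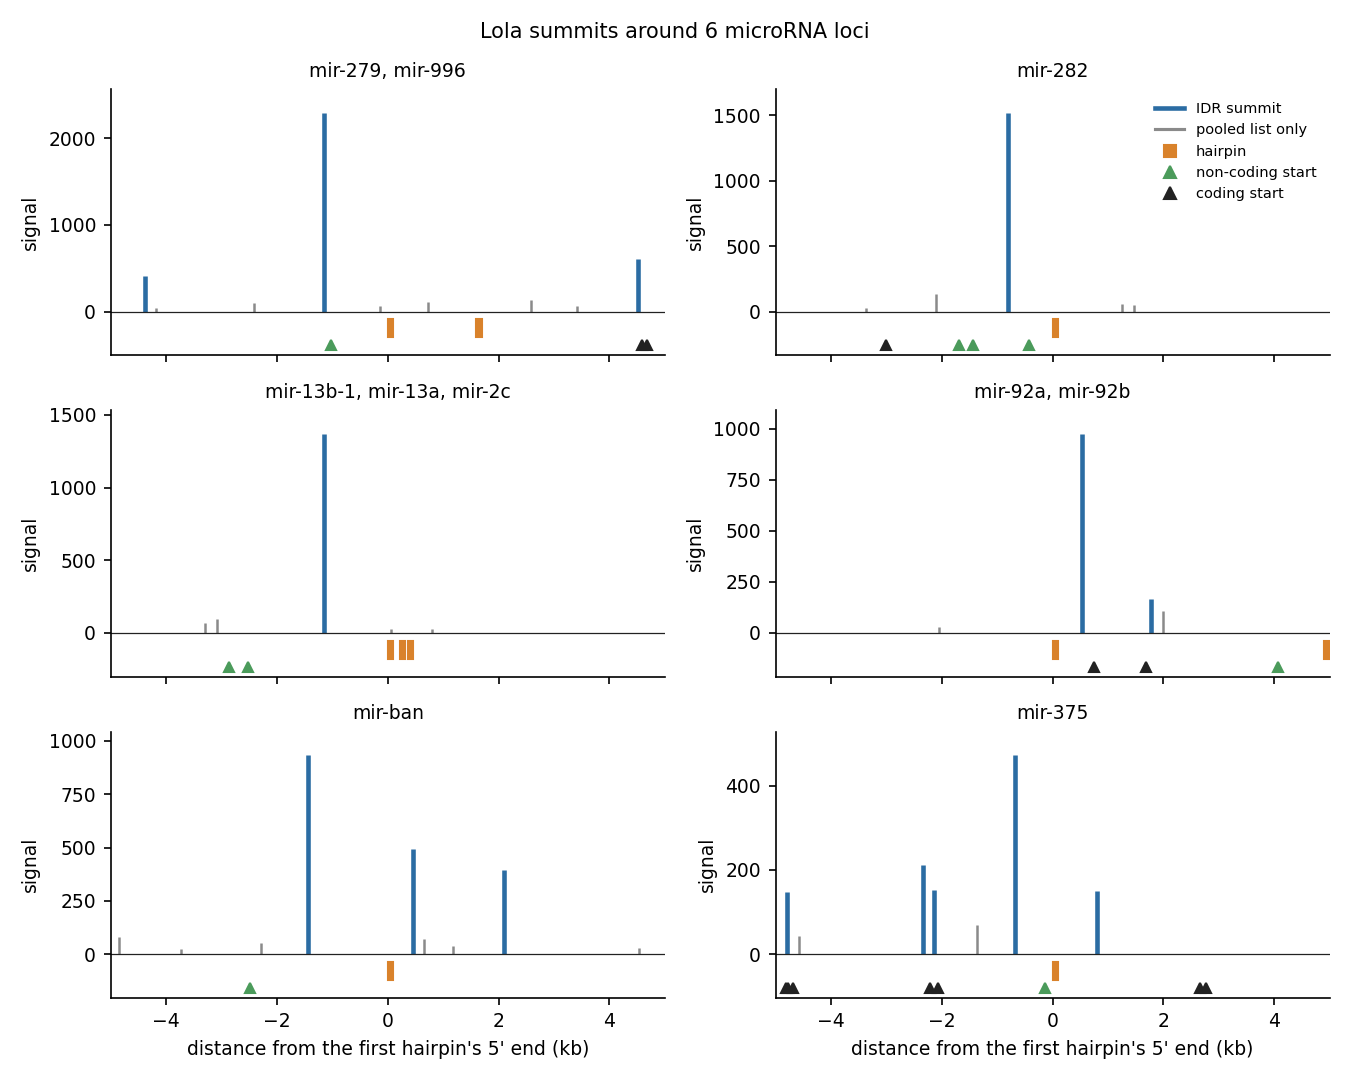
Summits within 5 kb of the first hairpin at 6 microRNA loci, with distance from its 5' end in kb on the x axis (upstream below 0) and pooled signal on the authors' scale on the y axis; squares mark hairpins and triangles annotated transcript starts. At mir-279 a summit of 2292 stands beside the non-coding start, at mir-92a a summit of 972.7 stands downstream of the hairpin beside a coding start, and at mir-ban summits of 932.1 and 493.3 lie on either side of the hairpin.

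Inside coding genes the strongest summit was in an intron of Tis11, which encodes a zinc-finger protein of mRNA decay, 1353 bp downstream of mir-9377. Its signal was 1852 at rank 110, with 899.3 at rank 109 in replicate 1 and 944.8 at rank 117 in replicate 3. Weaker summits lay 346 bp (752.0) and 553 bp (167.4) downstream of the same hairpin. In Mob2, which encodes a kinase activator, mir-4968 had a summit of 1261 at rank 271, 1853 bp upstream, and one of 457.2 at 460 bp downstream. Near mir-9378, in CG17124, a summit of 1072 lay 174 bp upstream, and here the replicates differed more: it ranked 188 in replicate 1 and 896 in replicate 3. None of these summits was at an annotated coding start, the closest being 1033 bp off. The mir-9377 and mir-9378 hairpins themselves lay 4683 and 4387 bp from a start of their hosts, and mir-4968 lay 419 bp from a start of Mob2.

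Among well-studied hairpins inside a gene was mir-92a, which lies in an intron of jigr1 and acts in neuroblast self-renewal. Its summit had a signal of 972.7 at rank 470, with 460.1 at rank 527 in replicate 1 and 501.6 at rank 465 in replicate 3. It lay 441 bp downstream of the hairpin, since it stood 205 bp upstream of a jigr1 start that itself lies past the hairpin. A second summit of 166.6 lay at another jigr1 start. The mir-263b gene, which protects bristle cells from death, lies in meru and had a summit of 335.5 at 1261 bp upstream, 694 bp before a meru start. The related mir-bft (mir-263a) had none, its nearest IDR summit lying 3302 bp downstream.

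Most of the other summits near hairpins stood at coding promoters, some of them of the hairpin's own host. By position they cannot be assigned to the hairpin rather than to the coding gene. The pair mir-275 and mir-305, of which mir-305 acts in intestinal stem cells, had summits of 279.4 and 147.7 on their 3' side, both at the promoter of muc. The mir-310 to mir-313 hairpins, known for tuning Hedgehog signalling in the ovary, shared a summit of 232.5 that lay 356 bp upstream of a qsm start. It ranked 2522 in replicate 1 and 5645 in replicate 3. The mir-992 hairpin of the same cluster had a summit of 187.9 at the promoter of Nnf1a and HnRNP-K. At mir-2496 summits of 562.3 and 498.4 were at the PIG-K promoter and one of 159.8 was in east. Single summits between 173.1 and 296.8 stood at the promoters of ND-23 (mir-4911), tex (mir-4918), CG42788 (mir-2493), Kdm3 (mir-2283) and bun (mir-967). Each of these genes is the host of its hairpin on the same strand. Single summits also stood at the promoters of Atg13 (208.6, mir-9380) and CG14968 (178.1, mir-955), which do not hold the hairpin.

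Away from promoters, mir-8, the fly counterpart of the vertebrate mir-200 family, had a summit of 327.6 at 939 bp upstream. It stood 196 bp upstream of a start of its transcript, lncRNA:CR43650. Replicate 1 had no summit within 100 bp of it, although its strongest summit in the window, 185.1 at rank 2298, was close in rank to that of replicate 3, 153.6 at rank 2559. The mir-8 window also held the most pooled summits of any hairpin, 9. The remaining summits lay at mir-4981 (443.8), mir-2492 in Drak (393.3), mir-2491 in fog (230.2), mir-308 in RpS23 (221.2), the testis-enriched mir-972, mir-9369, mir-973 and mir-974 on the X (190.6, shared by all of them) and mir-4972 in for (172.6). No replicate 1 summit was found in the mir-4972 window.

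**Figure D4:**
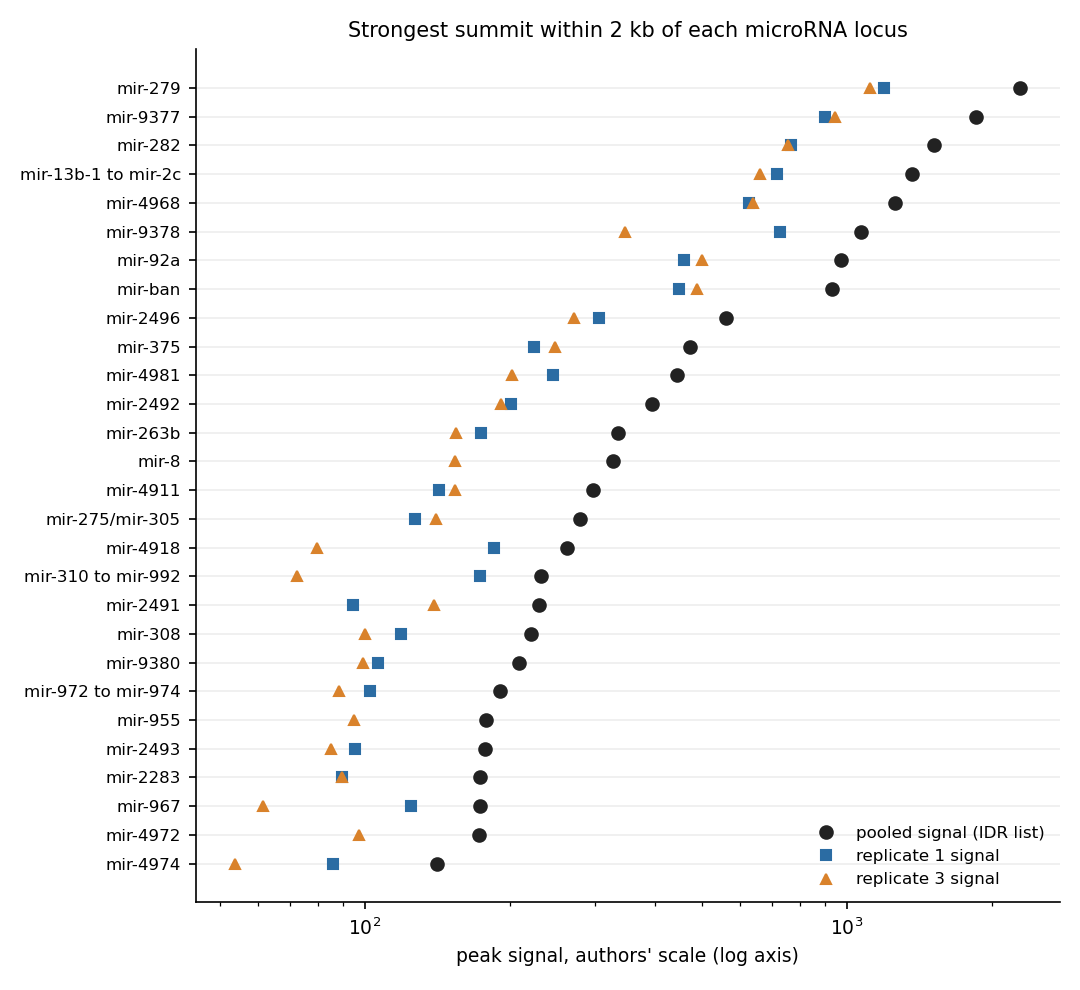
Signal of the strongest IDR summit at each of the 28 loci with one (x axis, log scale, authors' units), in the pooled list and at the summit within 100 bp of it in replicate 1 and in replicate 3. The replicate points lie close together for most of the 8 strongest loci, mir-9378 being the widest of these, and no replicate 1 point exists for mir-8, mir-955 and mir-4972.

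Start sites of the genes that hold hairpins were also examined, since they can lie outside the windows. For coding genes any start site was counted, also one past the hairpin, from which the transcript does not hold it. Of 128 coding genes that hold a hairpin on their own strand, 40 had an IDR summit within 500 bp of a coding start site (31.2%, interval 23.9% to 39.7%), against 22.9% of all 13945 coding genes. Some hosts hold the same hairpin and were counted for the same summit, such as Kdm3 with CG8176, CG45092 with chk and CG7029 with Usp12-46. They are not independent, so the interval is too narrow. Host genes have more start sites, with a median of 2, against 1 for all coding genes. Among genes with 3 or more, 23 of 42 hosts had a summit (54.8%, against 45.9% of such genes). Among those with fewer than 3, 17 of 86 hosts had one (19.8%, against 20.9%). The excess over all coding genes was thus not present among hosts with fewer than 3 start sites. The 3 host promoters with the strongest summits were those of for (2189, mir-4972), spi (1515, mir-2a-1, mir-2a-2 and mir-2b-2) and Btk (1497, mir-2b-1). The for gene encodes the foraging kinase, spi the EGF receptor ligand Spitz and Btk a tyrosine kinase. The for start with this summit lies past mir-4972, so the transcript from it does not hold that hairpin. Among further hosts of well-studied hairpins, E2f1 (529.5, mir-11 and mir-998), which encodes a cell cycle regulator, had a summit above the list's median of 268.4. The summit of grp (204.7, mir-306, mir-79, mir-9b and mir-9c), which encodes a checkpoint kinase, was below it. So were those of Oda (249.0, mir-281-1 and mir-281-2), HnRNP-K (187.9, mir-7, the summit shared with Nnf1a), Tomosyn (183.4, mir-970) and rhea (156.1, mir-190). Other hosts had none, among them SREBP (mir-33), RpS23 (mir-308), meru (mir-263b), CCT2 (mir-13b-2) and Gmap (mir-12, mir-283 and mir-304).

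Of the 94 intergenic hairpins, 41 lay inside an annotated non-coding transcript. These 41 lay in 28 non-coding host genes, of which 5 had a summit within 500 bp of a start (17.9%), against 9.01% of all ncRNA genes other than hairpins. They were the hosts of mir-279 with mir-996, mir-282 and mir-8, described above, lncRNA:CR42651 with mir-10 (327.4) and lncRNA:Hsromega with mir-4951 (804.6). The summit at the start of lncRNA:CR42651 lay 7172 bp from the mir-10 hairpin and that at Hsromega 20441 bp from mir-4951, so neither hairpin had a summit in its own window. With 5 loci, and with the number of starts per gene not compared here, this share is a count and no more.

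By function, 92 hairpins in 13 groups of well-studied microRNAs were followed, and 20 of them had an IDR summit (21.7%), against 18 of the other 168 (10.7%). The groups were chosen with earlier results of these data known. Hairpins of a cluster share their summits, so the 20 are not independent, and the difference was not tested. All 3 hairpins of the let-7 complex, which times metamorphosis, lacked a summit in either list, and their nearest IDR summit lay 5186 to 6077 bp downstream. The 8 hairpins of the mir-309 cluster, which acts in clearing maternal mRNA from the early embryo, had none in either list, with the nearest IDR summit 28957 bp or more away. Neither muscle microRNA had an IDR summit: mir-1 had 5 weak pooled ones, the strongest 69.41 at rank 11772, and mir-133 had none.

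In the nervous system group 2 of 12 had an IDR summit, mir-279 and mir-263b. The brain-enriched mir-124 had 3 pooled summits, the strongest 32.05 at rank 23514. At mir-9a, which limits sense organ precursors, the stronger of 2 pooled summits was 32.37 at rank 23275. A strong IDR summit (1573) lay 4284 bp upstream of the mir-9a hairpin. None of the 4 hairpins of the Hox clusters had an IDR summit, and 3 had a pooled one, the strongest being 93.94 at the mir-iab-4 and mir-iab-8 pair of the bithorax complex. Of the 9 in metabolism and hormone response, mir-8, mir-275 and mir-305 had an IDR summit, and mir-14, mir-276a and mir-276b a pooled one only. The 3 hairpins of the mir-277 cluster and the 3 of the mir-12 cluster had no IDR summit.

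Hairpins with a common seed lay in loci with and without summits. The K box group, which shares the seed AUCACAG, had an IDR summit at 4 of 10 hairpins and a pooled one at all 10. With the mir-5 and mir-6 hairpins, which carry that seed too, the family came to 14 hairpins in 7 loci, of which 2 loci had an IDR summit. A pooled summit lay near 10 of these 14 hairpins, and near 47.7% of all hairpins. The seed AUUGCAC was carried by 6 hairpins in 2 loci, mir-310 to mir-313 and the mir-92 pair, and both loci had one, reaching 5 of the 6. Of the 3 hairpins with the seed GACUAGA, mir-279 had one, and mir-996 and mir-286 did not. In all, 33 seeds were shared by 2 or more hairpins, and 13 of the 73 hairpins that carry them had an IDR summit. Over all hairpins the share was 14.6%, and the families named here rest on few loci each.

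**Figure D5:**
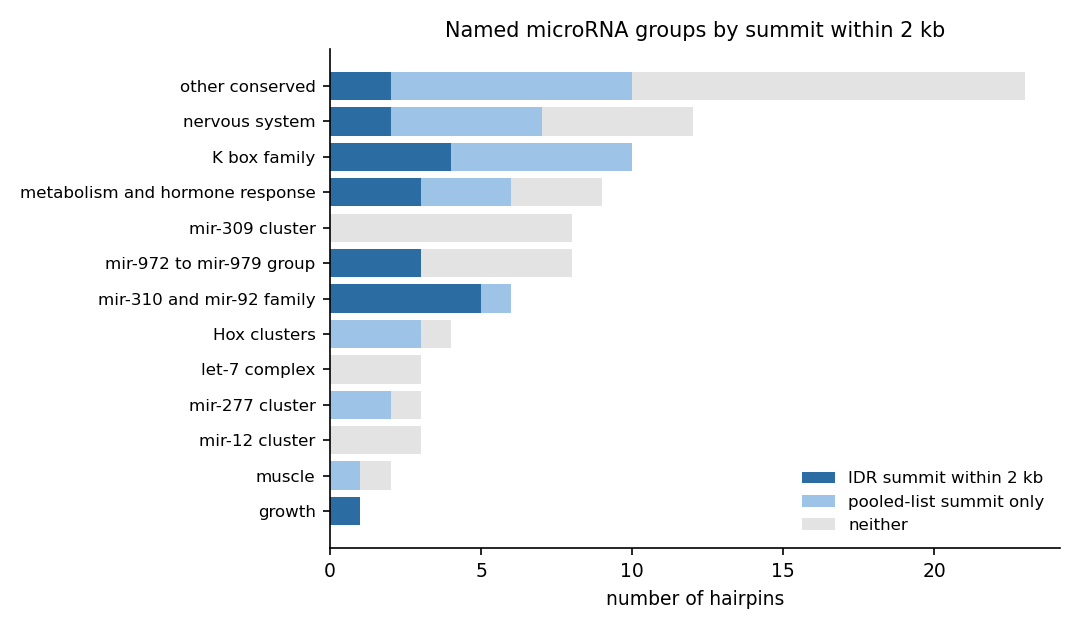
Number of hairpins (x axis) in each of 13 groups of well-studied microRNAs with an IDR summit in the window, with a pooled-list summit only, or with neither. The mir-310 and mir-92 family has an IDR summit at 5 of 6 hairpins and the K box family at 4 of 10, and the mir-309 cluster, the let-7 complex and the mir-12 cluster have no summit in either list.

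The genes that make and use microRNAs were compared as the other part of the pathway. Of 23 such genes, 8 had an IDR summit within 500 bp of a coding start site (34.8%, interval 18.8% to 55.1%), against the 22.9% of all coding genes, which lies inside that interval. In processing, none was found at the promoters of drosha, pasha, Dcr-1 and loqs, although a summit of 1223 lay in the pasha locus and one of 1124 in the loqs locus, in both cases more than 500 bp from their own coding start sites. Ars2, which links the cap to processing, had one of 147.7. The Argonaute genes AGO1 and AGO2, and Dcr-2 of the siRNA pathway, had none, and its partner r2d2 had 871.4 at a promoter shared with Herp. In silencing, gw (502.6), whose product recruits the deadenylases, and twin (279.9, shared with cav), a deadenylase, had a summit. So did the chaperone genes Hsc70-4 (357.8, shared with tefu) and Hsp83 (319.2), which serve in loading. Ranbp21 (274.9, shared with Elys) of nuclear export and Nbr (197.8, shared with Noc2), an exonuclease that trims microRNAs, had one too. None was found at the promoters of me31B, pcm and Not1 of silencing or of Hen1, Tailor and lin-28 of trimming and tailing. The promoters of ldbr, of lariat debranching, and Fkbp59, of loading, had none either.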

How the data were processed

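Peak lists from 2 biological replicates (numbered 1 and 3) of 1 group were taken as the authors deposited them (dm6). The submitters' file records give 1 list per replicate and 1 from both pooled, with 30000 peaks each, and an IDR-thresholded list of 6154, which held exactly the strongest pooled peaks. Each peak's signal was deposited by the authors on a scale not given in the sources used here, as were the aligner and the peak caller, and it served only to rank peaks within a list. The −log10 q values deposited by the authors were not used for ranking. Read depth is unknown and the control alignment was not used here. Chromatin had been sheared to 200 to 800 bp, per the labels.

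Genes came from Ensembl release 115 (BDGP6.54, the dm6 sequence), and sequences from the RefSeq copy of the same genome. Of 262 annotated hairpins, 2 on the rDNA sequence fell outside the rule. A hairpin inside a coding gene lay wholly within its span on either strand. Clusters were hairpins of the same strand with gaps of at most 10000 bp. Background positions were all bases of the 6 arms given a window of the median hairpin length, 92 bp, plus 2000 bp on each side. Replicate values came from a summit within 100 bp. Intervals are Wilson 95% and cover counting error only. With 1 group no test between samples was made. The text names every hairpin with an IDR summit where these make up at most 40 loci, the members of the functional groups described, their hosts and the pathway genes. The members and lists were chosen with earlier results of these data known. Alternatives were other windows, gaps and peak sets and each replicate's own 6154 strongest peaks. Counting was tested on simulated data. Python 3.11.15, pandas 2.3.3, numpy 2.4.6, scipy 1.17.1 and matplotlib 3.10.9 were used.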

Additional observations from a re-analysis of the deposited data

How the results depend on the processing

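Of 57 alternatives 22 moved, all through the window or the peak set, and 35 stayed within 1.5 times of a count, within the Wilson interval of a share or within the quartiles of the distance. With the stronger 3077 IDR peaks, 19 hairpins and 16 loci had a summit (4.22% inside coding genes, 12.8% intergenic, 8.86% clustered, 6.63% lone). With 1000 bp on each side, 18 hairpins and 17 loci had one, and the shares were 8.51% of intergenic hairpins, against 7.99% of positions, 6.02% of those inside coding genes, against 8.51%, 3.80% of clustered ones and 8.29% of lone ones. The intergenic share was then close to its background, and lone hairpins were above clustered ones. With 5000 bp, 88 hairpins and 69 loci had one (33.1% inside coding genes, now above the 31.3% of positions, 35.1% intergenic, 34.2% clustered, 33.7% lone). With all pooled peaks, 124 hairpins and 102 loci had one (46.4%, 50%, 43.0% and 49.7% in the same order). The cause of the loss at 1000 bp was not tested. Each replicate's own strongest peaks, with the other replicate left out, gave 37 to 44 hairpins, 27 to 33 loci, 9.04% to 12.7% inside coding genes, 23.4% to 24.5% intergenic, 20.3% to 22.8% clustered, 11.6% to 14.4% lone and 7 to 9 pathway genes. The full replicate lists gave 130 to 131 hairpins. With each replicate's own strongest peaks, the median distance to the nearest summit was 7435 to 7449 bp. These 2 repeats, of the pooled count and of the distance, were chosen after seeing the data. Of the 38 hairpins, 35 also had a summit among the 6154 strongest peaks of each replicate. The exceptions were mir-4972, with none in the replicate 1 window, and mir-967 and mir-4974, whose replicate 3 summits ranked 6563 and 7436. No paired analysis was possible because there was only 1 group. Unknown read depth and the lack of a mock precipitation in the comparisons limit every count: a hairpin with no summit was not shown to be unbound.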
